A study of Mus musculus with 16 samples.

Results

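Abi3bp and Ddit4l are 2 genes chosen by their large fall in R6/2 striatum against wild type in these arrays, and every probe set annotated to 1 of them alone was taken. That gave 5 of the 45101 probe sets on the array, 2 for Abi3bp and 3 for Ddit4l, and all 5 were kept without a filter on brightness. Because log2 levels in R6/2 and wild type chose them, that difference is given as a description and not tested.

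Abi3bp encodes ABI family member 3 binding protein, a secreted protein of the extracellular matrix that was named for its binding to the SH3 domain of ABI3. Ddit4l encodes REDD2, a relative of the stress-induced protein REDD1 (gene Ddit4), and both restrain mTORC1, the kinase complex that drives protein synthesis and cell growth when nutrients and growth factors are plentiful. REDD1 acts through the TSC1 and TSC2 complex, which switches off Rheb, the activator of mTORC1. The striatum is made up mainly of medium spiny neurons, the cells most affected in Huntington's disease.

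Total RNA of whole striatum was hybridized to Affymetrix whole-genome mouse arrays, 1 array for each of 16 samples from mice of the B6xCBA strain. The 4 groups of 4 replicates were R6/2 x DREAM+/-, DREAM+/-, R6/2 and wild type. R6/2 mice are a model of Huntington's disease with a transgene for the first exon of the human gene, which holds a lengthened CAG repeat, driven by its own human promoter. DREAM+/- mice lack 1 working copy of Kcnip3, the gene of the calcium-binding transcriptional repressor DREAM, and R6/2 x DREAM+/- mice came from crossing DREAM knockout mice with R6/2 mice. DREAM+/- is the control for R6/2 x DREAM+/- and carries the DREAM allele too. No source used here states age, sex or pooling. The label names striatal neurons, but the RNA came from whole tissue, so fewer cells of a type and less RNA per cell cannot be told apart. The labels call the samples replicates without tying each to an animal, so p-values measure the spread between these samples, which may be technical.

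A few arrays and markers bear on the values that follow. The targeted gene Kcnip3 read 7.56 ± 0.12 in R6/2 x DREAM+/-, 7.77 ± 0.04 in DREAM+/-, 9.11 ± 0.09 in R6/2 and 9.67 ± 0.24 in wild type on its brighter probe set (log2 level, mean ± SD, n = 4 each). Its dimmer probe set read 5.4, 5.6, 8.0 and 8.5 in the same order of groups. Kcnip3 was lower in both DREAM+/- groups without overlap on both probe sets. Each fall was larger than the loss of 1 equal copy would give by itself, and why was not tested. Whether its probes lie in the deleted part is not known here. On the third principal component R6/2 x DREAM+/- replicate 3 lay at -15.9 and the remaining arrays between -4.87 and 10.6. In R6/2 replicate 1 the X-inactivation transcript Xist read 6.49, and in the other arrays it read 11.04 to 12.16. Of 16 measured markers of medium spiny neurons, none stayed within background on every array.

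The promoter of Ddit4l is shown because the DREAM gene is the one altered in this design. DREAM acts on DNA through the downstream regulatory element, a short element with the core GTCA. RefSeq places the 250 bases before the annotated start of Ddit4l at chr3:137623422-137623671 on the plus strand of GRCm38.p6. Capitals mark each GTCA core, here read on the minus strand as TGAC.
Ddit4l promoter: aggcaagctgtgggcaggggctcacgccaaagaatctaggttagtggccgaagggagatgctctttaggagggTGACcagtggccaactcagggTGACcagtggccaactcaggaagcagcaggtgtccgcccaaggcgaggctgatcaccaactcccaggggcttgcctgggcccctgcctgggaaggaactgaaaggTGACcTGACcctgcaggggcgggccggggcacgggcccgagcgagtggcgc
The window held 4 such cores, which begin 177, 156, 51 and 46 bases before the start. On both strands, GTCA occurred in 80.2% of 32851 promoter windows of the same length, with a median of 2 matches, and 11.4% of the windows held at least as many as Ddit4l. Neither TATAAA (12.4% of windows) nor the cyclic AMP response element TGACGTCA (1.55%, a motif that contains GTCA) was found in it. The EGR motif GCGTGGGCG (0.536%) and the AP-1 motif TGANTCA (6.75%) were absent too. TGANTCA contains GTCA on 1 strand when N is G or C. The window was rich in G and C, at 65.2% against a median of 52.4%. A match describes these letters and is not a binding site, and bases after the start were not scanned. Of both genes, Ddit4l was matched in the promoter table and Abi3bp was not.

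Ddit4l was lower in R6/2 striatum on each of its 3 probe sets, on both DREAM backgrounds. Its brightest probe set, 1444139_at, read 7.82, 7.86, 8.32 and 8.05 in R6/2 x DREAM+/- replicates 1 to 4, against 9.64, 9.56, 9.58 and 9.33 in DREAM+/- (log2 level). The highest crossed array was thus below the lowest DREAM+/- array. The difference was -1.51 on the log2 scale (SE 0.12, 95% interval -1.77 to -1.26), which leaves 35.0% of the DREAM+/- level. It passed limma's moderated test (adjusted p = 3.04e-06 over 34945 probe sets).

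On the wild-type background the same probe set read 7.81, 7.42, 7.90 and 7.58 in R6/2 replicates 1 to 4, against 9.46, 9.57, 9.44 and 9.16 in wild type. These groups did not overlap either, as was so for 7.91% of all probe sets in the lower direction. The difference of -1.73 (log2, SE 0.12), which helped to choose the gene, leaves 30.1% of the wild-type level.

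The second Ddit4l probe set, 1439332_at, read 7.33, 7.62, 7.89 and 7.40 in R6/2 x DREAM+/-, against 9.17, 9.09, 9.23 and 8.73 in DREAM+/-. In R6/2 it read 7.13, 6.97, 7.36 and 6.76, against 9.02, 9.16, 9.14 and 8.63 in wild type. It kept the order of the brightest set, with no overlap across R6/2 status on either background. The log2 difference was -1.50 (SE 0.15, adjusted p = 1.85e-05, limma) in R6/2 x DREAM+/- against DREAM+/-, and -1.93 (SE 0.15) in R6/2 against wild type.

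The third and dimmest Ddit4l probe set, 1451751_at, read 6.33, 6.92, 6.61 and 6.73 in R6/2 x DREAM+/-, against 8.63, 8.41, 8.61 and 8.21 in DREAM+/-. In R6/2 it read 6.45, 6.44, 6.19 and 6.42, against 8.24, 8.48, 8.38 and 8.05 in wild type. Each group with the transgene lay below its control without overlap. Of all probe sets, 5.81% did so in R6/2 x DREAM+/- against DREAM+/- and 7.91% in R6/2 against wild type. The log2 difference was -1.82 (SE 0.12, limma adjusted p = 5.98e-07), or 28.4% of the DREAM+/- level, and -1.91 (SE 0.12), or 26.6% of the wild-type level. Across the 3 probe sets the R6/2 level was therefore 28.4% to 35.5% of its control in DREAM+/- mice and 26.2% to 30.1% in mice with both Kcnip3 copies.

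Abi3bp was also lower on both probe sets, from a dimmer starting level. Its brighter probe set is 1427054_s_at, whose suffix marks probes that can match more than 1 transcript. It read 4.90, 5.46, 6.13 and 5.05 in R6/2 x DREAM+/- replicates 1 to 4, against 6.94, 7.08, 7.12 and 6.75 in DREAM+/- (log2 level). No crossed array reached the DREAM+/- range, but the crossed arrays were spread widely (SD 0.55, against 0.17 in DREAM+/-), with replicate 3, the array that stood apart, highest. The difference was -1.59 (log2, SE 0.22, 95% interval -2.05 to -1.12, limma adjusted p = 0.000278), and without that array it was -1.84 (adjusted p = 9.50e-06, limma). Whether what sets that array apart had a part in its Abi3bp level was not tested.

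On the wild-type background 1427054_s_at read 4.96, 4.72, 5.12 and 4.19 in R6/2, against 7.44, 7.24, 7.24 and 7.05 in wild type. The groups were separated by more than the whole range of either. The difference was -2.50 (log2, SE 0.22), a value that chose the gene and whose lower end lies among silent genes.

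The dimmer Abi3bp probe set, 1427053_at, read 4.11, 4.25, 4.45 and 4.05 in R6/2 x DREAM+/-, against 5.18, 5.12, 5.08 and 4.63 in DREAM+/-. In R6/2 it read 4.20, 4.01, 4.31 and 3.93, against 5.96, 5.47, 5.82 and 5.30 in wild type. Arrays with the transgene were again below their controls without overlap, by a smaller margin. The log2 difference was -0.79 (SE 0.15, limma adjusted p = 0.00295) in R6/2 x DREAM+/- against DREAM+/-, and -1.53 (SE 0.15) in R6/2 against wild type.

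**Figure D1:**
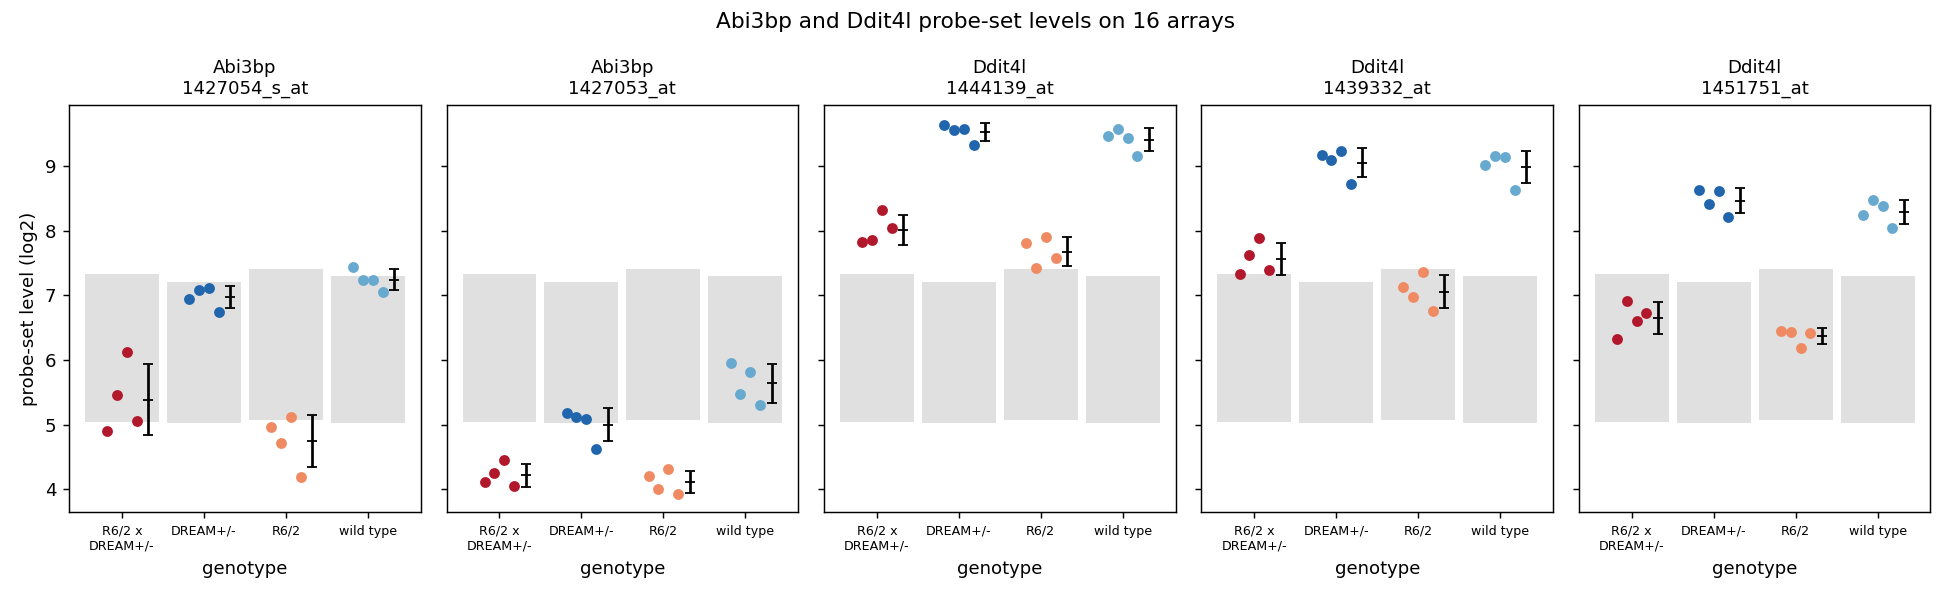
Log2 level of each probe set on each array (points), by genotype, with the mean and SD beside them (bars, n = 4). Grey boxes run from the median to the 95th percentile of probe sets for genes listed as silent in brain, averaged over the arrays of a group. All 3 Ddit4l sets start above the box in DREAM+/- and wild type, while Abi3bp lies within it or near its lower edge in DREAM+/-, within it on most wild-type arrays, and mostly near or under its lower edge in R6/2.

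All 5 probe sets passed limma's test for R6/2 x DREAM+/- against DREAM+/- in the lower direction, where 4.01% of all 34945 probe sets did. All 5 also had no overlap between those groups, where 5.81% of probe sets were lower without overlap. In an exact two-sided permutation test over 70 assignments each gave p = 0.0286, the smallest these group sizes allow. The arrays of this comparison did not choose the genes, but the genes were chosen with its outcome already known, so it is no independent support. In order of all log2 differences in this comparison, Ddit4l probe set 1451751_at was at place 3, 1444139_at at place 8 and 1439332_at at place 10. Abi3bp probe set 1427054_s_at was at place 6 and 1427053_at at place 109.

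**Figure D2:**
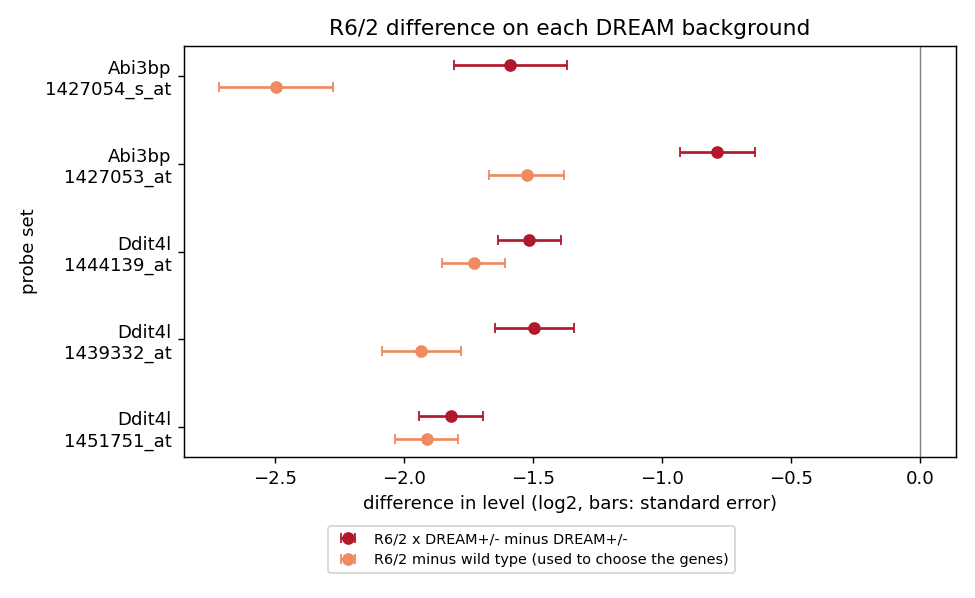
Difference in log2 level (horizontal axis) for each probe set, R6/2 x DREAM+/- minus DREAM+/- and R6/2 minus wild type, with standard errors from the fit over all arrays. All 10 differences lie below 0, and the Abi3bp differences are smaller on the DREAM+/- background.

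How far these levels lay from background was judged from 63 probe sets of 42 genes that are listed as silent in brain, such as milk, sperm and liver proteins. Across arrays their median lay between 4.96 and 5.15 and their 95th percentile between 7.16 and 7.52 (log2 level). Probe sets differ in how brightly they read with no target, so this range describes background and is not a detection limit for a single probe set.

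Ddit4l lay above the 95th percentile without the transgene, though not above every silent probe set. In DREAM+/- and in wild type 98.4% of the silent probe sets read lower than each Ddit4l probe set (means over 4 arrays). On 1444139_at all 4 arrays of every group exceeded the 95th percentile, by 0.68 ± 0.23 in R6/2 x DREAM+/-, 2.32 ± 0.14 in DREAM+/-, 0.27 ± 0.24 in R6/2 and 2.11 ± 0.24 in wild type (log2, SD, n = 4). On 1439332_at 3 of 4 crossed arrays and 0 of 4 R6/2 arrays exceeded it, with all arrays above it in both control groups. On 1451751_at 0 of 4 arrays exceeded it in R6/2 x DREAM+/- and in R6/2, and 4 of 4 did in DREAM+/- and in wild type.

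Abi3bp lay near or within the range of silent genes in controls too, though on 1427054_s_at both control groups were above the 40th percentile of all probe sets, by 1.04 in DREAM+/- and 1.32 in wild type (log2). On 1427054_s_at 0 of 4 arrays exceeded the 95th percentile in R6/2 x DREAM+/-, DREAM+/- and R6/2, and 3 of 4 did in wild type, by at most 0.06. Of the silent probe sets, 60.7% read lower than Abi3bp in R6/2 x DREAM+/-, 93.3% in DREAM+/-, 37.3% in R6/2 and 93.7% in wild type (means over 4 arrays). The level in R6/2 thus lay inside the range of silent genes. On 1427053_at the shares were 17.9%, 47.2%, 13.9% and 71.0% in the same order of groups, so this probe set read among the silent genes in all groups. As a place among all 45101 probe sets of an array, 1427054_s_at stood at the 29.3 percentile in R6/2 x DREAM+/-, 55.9 in DREAM+/-, 17.0 in R6/2 and 59.7 in wild type. For 1444139_at the percentiles were 69.7, 86.6, 65.3 and 85.4. A level close to background compresses a log2 difference, so the Abi3bp differences may understate the change in its RNA.

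The distance between probe sets of a gene was compared by group, without a test. For Abi3bp the brighter set exceeded the dimmer by 1.17 ± 0.38 in R6/2 x DREAM+/-, 1.97 ± 0.15 in DREAM+/-, 0.64 ± 0.25 in R6/2 and 1.61 ± 0.18 in wild type (log2, SD, n = 4). The gap was thus narrower in both groups with the transgene. For Ddit4l the gap between 1444139_at and 1439332_at was 0.45 ± 0.17 in R6/2 x DREAM+/-, 0.47 ± 0.10 in DREAM+/-, 0.62 ± 0.16 in R6/2 and 0.42 ± 0.09 in wild type. From 1444139_at to 1451751_at it was 1.36 ± 0.33 in R6/2 x DREAM+/-, 1.06 ± 0.09 in DREAM+/-, 1.30 ± 0.31 in R6/2 and 1.12 ± 0.07 in wild type. Among the arrays without the transgene, replicate 4 was lowest in all 5 probe sets in DREAM+/- and in wild type. R6/2 x DREAM+/- replicate 3 was highest of its group in 4 of the 5.

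No DREAM+/- effect on either gene passed the test. Averaged over R6/2 status, a contrast that in this balanced design does not depend on the difference that chose the genes, the log2 DREAM+/- differences were 0.23 (95% interval 0.05 to 0.41), 0.29 (0.06 to 0.51) and 0.23 (0.04 to 0.41) for Ddit4l on 1444139_at, 1439332_at and 1451751_at. For Abi3bp they were 0.18 (-0.15 to 0.51) on 1427054_s_at and -0.27 (-0.48 to -0.05) on 1427053_at. The probe sets of Ddit4l thus agreed in sign and those of Abi3bp did not. None of the 5 passed limma's test (adjusted p = 0.0912 to 0.501), where 13.1% of all probe sets did in either direction, and 4 of the 5 had an unadjusted p under 0.05. Exact two-sided permutation within R6/2 status over 4900 assignments gave p = 0.0355, 0.0494 and 0.0331 for the Ddit4l probe sets in the same order and p = 0.436 and 0.109 for Abi3bp, with no adjustment for the 5 tests.

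Each of the differences in that average shares arrays with the comparison that chose the genes, so it is given without a test. R6/2 x DREAM+/- minus R6/2 was 0.34 (SE 0.12), 0.51 (SE 0.15) and 0.27 (SE 0.12) for the 3 Ddit4l probe sets, and 0.64 (SE 0.22) and 0.10 (SE 0.15) for 1427054_s_at and 1427053_at of Abi3bp (log2). The ranges of these groups overlapped on every probe set. Without R6/2 x DREAM+/- replicate 3 the Abi3bp value on 1427054_s_at was 0.39. DREAM+/- minus wild type was 0.12 (SE 0.12), 0.07 (SE 0.15) and 0.18 (SE 0.12) for Ddit4l, and -0.27 (SE 0.22) and -0.64 (SE 0.15) for Abi3bp in the same order. On 1427053_at the groups did not overlap, with 4.63 to 5.18 in DREAM+/- and 5.30 to 5.96 in wild type, levels among those of silent genes; 5.34% of all probe sets were lower without overlap in this comparison. The R6/2 difference was smaller in size in DREAM+/- mice by 0.22, 0.44 and 0.09 on the Ddit4l probe sets (SE 0.17, 0.21 and 0.17) and by 0.91 and 0.74 on those of Abi3bp (SE 0.31 and 0.21). That comparison was not tested, since choosing genes for a large fall in R6/2 favours it.

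In order of mean level, Ddit4l on 1444139_at ran from DREAM+/- (9.53 ± 0.14) through wild type (9.41 ± 0.17) and R6/2 x DREAM+/- (8.01 ± 0.23) to R6/2 (7.68 ± 0.22; log2, SD, n = 4). Abi3bp on 1427054_s_at ran from wild type (7.24 ± 0.16) through DREAM+/- (6.97 ± 0.17) and R6/2 x DREAM+/- (5.39 ± 0.55) to R6/2 (4.75 ± 0.41). In both orders the first and second groups overlapped, as did the third and the fourth, and a gap without overlap lay between those pairs. The share of all probe sets with such a gap was not counted, and R6/2 against wild type chose the genes.

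The genes with the profile nearest to each member were found from the root mean square difference over 16 arrays, after each of 18193 genes was centred on its own mean. For Abi3bp these were Ryr1, a calcium release channel (0.29 log2), Crh, corticotropin-releasing hormone (0.32), Ddit4l itself (0.36), Egr2, an immediate early transcription factor (0.42), Phex, a membrane peptidase known from phosphate balance (0.44), and Scn4b, a sodium channel subunit (0.46). The median over all genes was 1.11. For Ddit4l they were the transcript C030013G03Rik (0.24), Clspn, a replication checkpoint adaptor (0.24), Dmkn, a secreted skin protein (0.25), Coch, a matrix protein of the inner ear (0.26), Scn4b (0.26) and Crh (0.29), with Abi3bp at place 19 and a median of 0.86 over all genes. Coch read 9.14 ± 0.12 in R6/2 x DREAM+/-, 10.29 ± 0.12 in DREAM+/-, 9.01 ± 0.08 in R6/2 and 10.32 ± 0.10 in wild type, with less spread than Ddit4l in every group. Ryr1 read 6.24 ± 0.61, 8.18 ± 0.20, 6.12 ± 0.17 and 8.35 ± 0.12 in those groups, with the same wide spread in the crossed group as Abi3bp. This measure favours genes whose differences are of like size: with every profile scaled to unit SD, 0 of the 6 stayed among the nearest 6 for Abi3bp and 3 of the 6 did for Ddit4l. The 16 arrays include the R6/2 and wild-type arrays that chose both members for a large fall. Nearness of the members to each other, or to other genes with a large fall, is therefore no independent support.

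**Figure D3:**
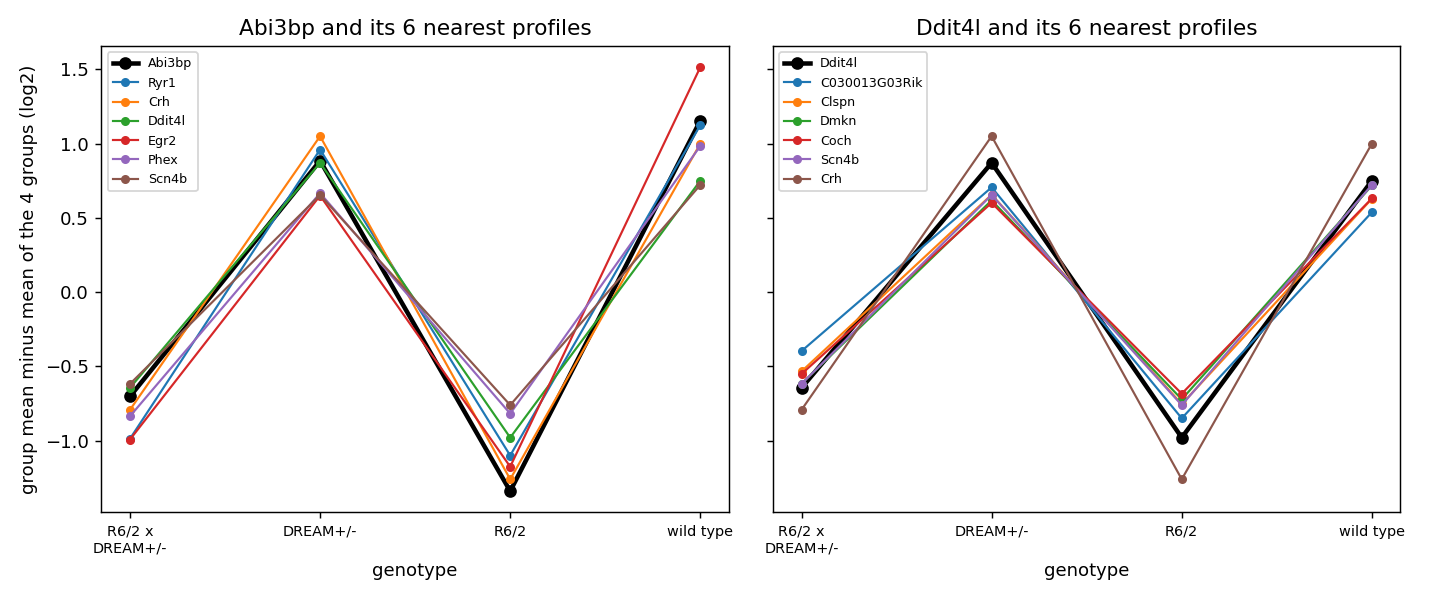
Group means on the vertical axis, as log2 level minus the mean of the 4 groups, for Abi3bp or Ddit4l (black) and the 6 genes with the nearest profile over 16 arrays. Lines join the groups of 1 gene. Each gene is lower in both groups with the transgene, and Abi3bp has the lowest point, in R6/2.

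The mTORC1 pathway, in which REDD2 acts, was described from 3 lists that did not include Ddit4l. The values are RNA levels, for the targets too, and mTORC1 activity was not measured. Of 12 inhibitors of mTORC1, 1 fell and 0 rose in R6/2 x DREAM+/- against DREAM+/-, where 4.71% of all genes fell and 3.63% rose. The gene that fell was Deptor, an inhibitory subunit, at -0.43 (log2, SE 0.12, limma adjusted p = 0.0460). That call was lost without any 1 of R6/2 x DREAM+/- replicates 1, 2 and 4, any DREAM+/- or R6/2 array, or wild-type replicate 1 or 2, and with the replicate block, arrays shifted to a common median or only the groups compared. The median over the list was -0.04, beside 0.02 over all genes. Depdc5, a subunit of an amino acid sensing inhibitor, read 0.24 and did not pass (limma adjusted p = 0.0834). Sesn3 and Nprl2, also inhibitors in amino acid sensing, read -0.13 and -0.06 and did not pass.

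Ddit4, the paralog of Ddit4l, did not show a drop of like size. It read 9.76 ± 0.15 in R6/2 x DREAM+/- and 9.81 ± 0.04 in DREAM+/-, a difference of -0.05 (log2, SE 0.08, limma adjusted p = 0.845). It read 9.51 ± 0.09 in R6/2 and 9.82 ± 0.17 in wild type, a difference of -0.31 (SE 0.08, limma adjusted p = 0.0204). In R6/2 against wild type 3 of the 12 inhibitors fell and 1 rose, where 7.44% of all genes fell and 8.22% rose. Those that fell were Ddit4, Deptor (-0.45) and Tsc1 (-0.17), the partner of TSC2, and the one that rose was Nprl3 (0.21). That sign was read on 4 of 6 probe sets for Deptor and 2 of 3 for Tsc1, while Ddit4 and Nprl3 have 1 each. Without R6/2 replicate 3 or wild-type replicate 1 none of the 3 lower calls was made, without R6/2 replicate 1 or 4 or wild-type replicate 3 or 4 the count was 1, and the Nprl3 call was lost without R6/2 replicate 4 or wild-type replicate 3.

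Among 21 subunits and activators of the mTOR complexes 2 fell and 0 rose in R6/2 x DREAM+/- against DREAM+/- (median -0.01), beside the shares over all genes given above. Rragd, a GTPase that brings mTORC1 to the lysosome, changed by -0.34 (SE 0.07, limma adjusted p = 0.00460), and Akt2, a kinase upstream of TSC2, by -0.33 (SE 0.08, adjusted p = 0.0214). Pdpk1, which activates Akt, read -0.20 (limma adjusted p = 0.112) and Rhebl1, a relative of Rheb, 0.18 (adjusted p = 0.137), and neither passed. In R6/2 against wild type 3 fell (Rragd at -0.54, Akt2 at -0.43 and Pdpk1 at -0.41) and 2 rose (Rhebl1 at 0.23 and Mlst8, a subunit of both complexes, at 0.22), with a median of -0.02. Without R6/2 replicate 2, 3 or 4 or wild-type replicate 1 or 3 the higher count was 1, as it was with arrays shifted to a common median, array weights, only the groups compared or the replicate block. Without R6/2 x DREAM+/- replicate 1, 2 or 4 or DREAM+/- replicate 1, 2 or 3 or with only the groups compared, the lower count on the DREAM+/- background was 1. Of 10 targets of mTORC1, none passed limma's test in R6/2 x DREAM+/- against DREAM+/-, and none had an unadjusted p under 0.05. The nearest were the translation factor Eif4b (0.07), the autophagy kinase Ulk1 (0.16), the translation repressor Eif4ebp1 (-0.11) and the ribosomal protein Rps6 (-0.05). In R6/2 against wild type Eef2k, a kinase that slows translation elongation, fell (-0.20, limma adjusted p = 0.0457), a call lost without R6/2 x DREAM+/- replicate 2 or 4, any DREAM+/- array, R6/2 replicate 1, 2 or 3, or wild-type replicate 1 or 3, with trended and robust variance, and with only the groups compared.

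Around Abi3bp, the ABI and WAVE complex, which steers actin assembly, had 3 of 10 genes lower and 0 higher in R6/2 x DREAM+/- against DREAM+/- (median -0.17). Of all genes, 4.71% fell and 3.63% rose there. The 3 lower genes of the complex were Nckap1 (-0.20), Brk1 (-0.26) and Abi1 (-0.28, limma adjusted p = 0.0108 to 0.0310), each a subunit. Nckap1l, the blood-cell relative of Nckap1, read -0.19 and did not pass (limma adjusted p = 0.0826). Without DREAM+/- replicate 2, or with only the groups compared, the count was 1, and with array weights it was 5. In R6/2 against wild type the count was 4 lower and 0 higher, where 7.44% of all genes fell and 8.22% rose. Nckap1 was at -0.21, Brk1 at -0.26, Abi1 at -0.31 and Cyfip2 at -0.28. Abi3, the partner that gave Abi3bp its name, read 7.04 ± 0.04 in R6/2 x DREAM+/-, 6.97 ± 0.13 in DREAM+/-, 7.05 ± 0.03 in R6/2 and 6.93 ± 0.20 in wild type on its brighter probe set, with 0 of 16 arrays above the 95th percentile of silent genes. Those levels lay in the upper part of the range of silent genes.

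Of 38 genes of the brain's extracellular matrix, to which Abi3bp belongs by function, 6 fell and 1 rose in R6/2 x DREAM+/- against DREAM+/-, and 9 fell and 0 rose in R6/2 against wild type (medians -0.07 and -0.06). Of all genes, 4.71% fell and 3.63% rose in the first comparison, and 7.44% fell and 8.22% rose in the second. Fbln5, an elastic fibre protein, changed by -0.49 (SE 0.05, limma adjusted p = 2.16e-05) and -0.51 in these comparisons. Reln, the guidance protein reelin, changed by -0.32 and -0.28, and Hapln1, a link protein of perineuronal nets, by -0.43 and -0.44. Vcan, the proteoglycan versican, changed by -0.44 and -0.38. These values are from the brightest probe set of each gene. In the same order of comparisons, that sign was read on 2 and 1 of 2 probe sets for Fbln5 and 1 and 2 of 2 for Reln. It was read on 4 and 4 of 4 for Hapln1 and on 6 and 3 of 8 for Vcan. The other genes lower on the DREAM+/- background were Thbs4 (-0.45) and Ncan (-0.51), and the one that rose was Itgav, an integrin subunit (0.27, limma adjusted p = 0.0459). On that background 2 of 3 probe sets shared the sign for Ncan and 3 of 5 for Itgav. The Itgav call was lost without R6/2 x DREAM+/- replicate 2, 3 or 4, DREAM+/- replicate 1, 2 or 3, or any R6/2 array, with only the groups compared, and with the replicate block.

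Markers of cells that could carry these transcripts were counted beside them. Of all genes, 4.71% fell and 3.63% rose in R6/2 x DREAM+/- against DREAM+/-, and 7.44% fell and 8.22% rose in R6/2 against wild type. Abi3bp is known from fibroblasts in other tissues, and of 19 markers of fibroblasts of vessels and meninges 1 fell (Col6a1, -0.31, limma adjusted p = 0.0286) and 0 rose in R6/2 x DREAM+/- against DREAM+/-, and 0 passed in either direction in R6/2 against wild type, where Col6a1 alone had an unadjusted p under 0.05 (medians 0.02 and 0.00). The Col6a1 call was lost without R6/2 x DREAM+/- replicate 1 or 2 or DREAM+/- replicate 2 or 3, with only the groups compared, and with the replicate block. The next 3 markers in order of p, Islr (0.28), Foxc1 (0.11) and Slc6a13 (-0.12), did not pass. The log2 of the summed levels of all 19 lay between 13.38 and 13.96 in R6/2 x DREAM+/-, 13.46 and 13.65 in DREAM+/-, 13.46 and 13.91 in R6/2, and 13.52 and 13.71 in wild type, so the groups overlapped. Ptgds, with group means of 13.04 to 13.16, was the brightest marker, and the sum mostly describes it. Of the 19, 11 stayed within background on every array, Lum, Col1a1 and Slc6a13 among them.

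Most medium spiny neuron markers fell, as Ddit4l and Abi3bp did. Of all genes, 4.71% fell in R6/2 x DREAM+/- against DREAM+/- and 7.44% fell in R6/2 against wild type. Of 16 markers measured, 13 fell and 0 rose on each background, with medians of -0.67 in R6/2 x DREAM+/- against DREAM+/- and -0.76 in R6/2 against wild type. The log2 of their summed levels lay between 15.58 and 15.89 in R6/2 x DREAM+/-, 16.24 and 16.34 in DREAM+/-, 15.65 and 15.81 in R6/2, and 16.34 and 16.40 in wild type. Their part in the Ddit4l and Abi3bp values was not tested. Scn4b was the lowest of the 16, at -1.27 (SE 0.14, limma adjusted p = 5.17e-05) on the DREAM+/- background, against -1.51 for Ddit4l. Arpp21, a phosphoprotein of these neurons, changed by -0.69, Penk, the enkephalin gene, by -0.85 and Gpr6, an orphan receptor of the indirect pathway, by -0.66. For Arpp21 3 of its 5 probe sets had that sign. Foxp1, Meis2 and Tac1 did not pass on either background. Tac1 differed by 0.02 in R6/2 x DREAM+/- against DREAM+/- and by 0.05 in R6/2 against wild type.

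Markers of cortical projection neurons, cells that lie next to the dissected region, were counted on both backgrounds. Of all genes, 4.71% fell in R6/2 x DREAM+/- against DREAM+/- and 7.44% fell in R6/2 against wild type. The difference in marker counts between backgrounds was not tested. Of 9 measured, 0 passed in R6/2 x DREAM+/- against DREAM+/-, where the nearest were Lamp5 (-0.18, limma adjusted p = 0.0860, the only one with an unadjusted p under 0.05), Rorb (-0.16), Fezf2 (-0.08) and Slc17a7 (-0.12), and 5 fell in R6/2 against wild type, with Slc17a7 at -0.92 and Neurod6 at -0.95. The log2 of their summed levels lay between 12.49 and 12.79 in R6/2 x DREAM+/-, 12.70 and 12.82 in DREAM+/-, 12.38 and 12.49 in R6/2, and 12.61 and 12.71 in wild type. By this sum R6/2 was below wild type without overlap, and the crossed group overlapped DREAM+/-. The sum is of linear levels, so it mostly describes the brightest markers, Lamp5 and Mef2c. In wild type these read 11.27 and 11.32, against 8.23 for Slc17a7 and 8.07 for Neurod6 (log2). Ddit4l and Abi3bp fell on both backgrounds, and the part of cortical tissue in their lower level in R6/2 was not tested.

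**Figure D4:**
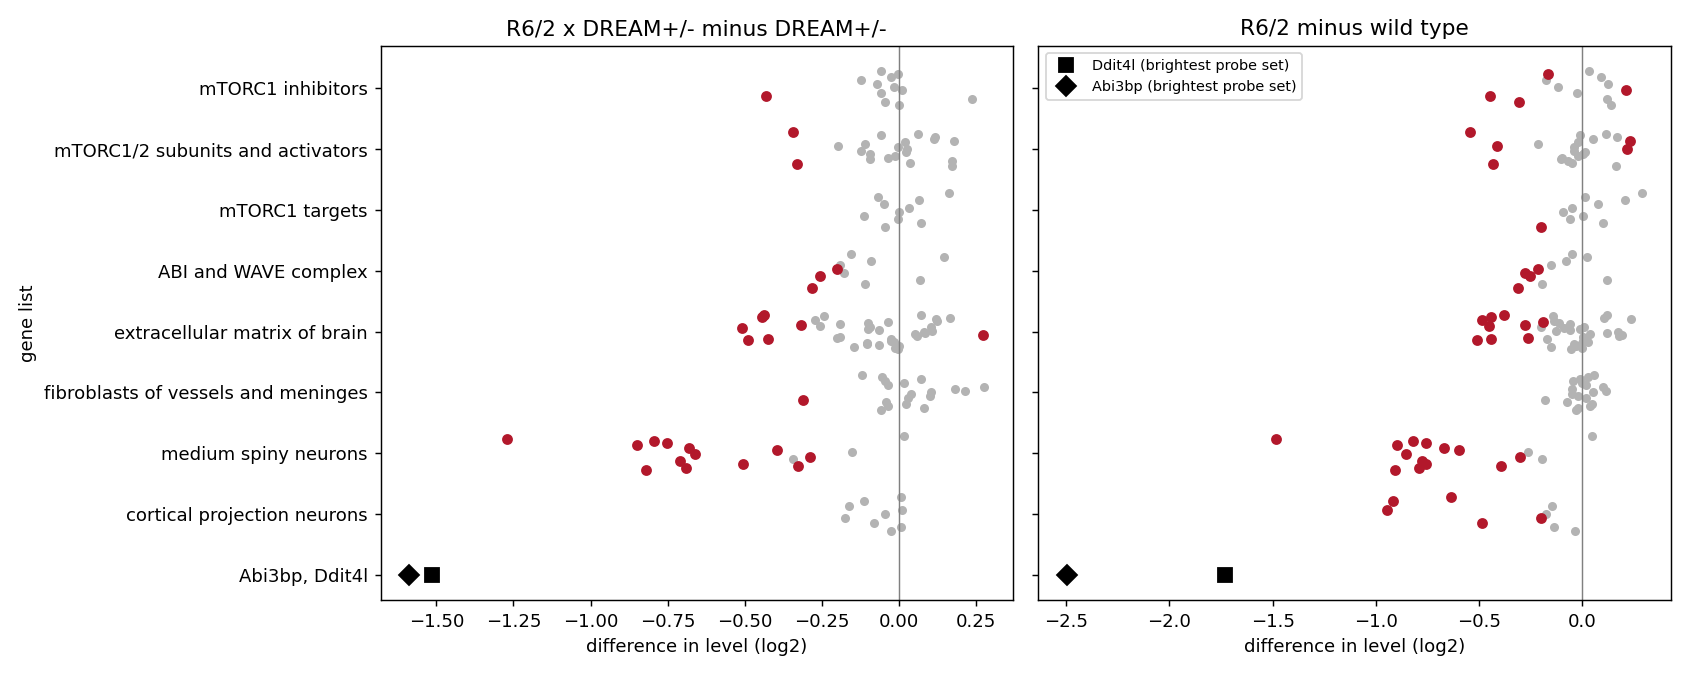
Log2 difference (horizontal axis) of each gene of 8 lists, with Ddit4l and Abi3bp on the bottom line, for R6/2 x DREAM+/- minus DREAM+/- (left) and R6/2 minus wild type (right). Red points passed limma's test at an adjusted p under 0.05 and grey points did not. Both genes lie below every listed gene on each side.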

How the data were processed

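Log2 levels of 45101 probe sets on 16 arrays (3.34 to 14.71) were used as the authors deposited them. RMA and affy are named in the submitters' processing notes, without version, role or order; RMA's background correction and normalization would remove a change shared by most genes. No source used here names the array's genome build. Groups came from sample titles.

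The 34945 probe sets with exactly 1 gene symbol (18193 genes) in the platform annotation were fitted together; 932 had several, the rest none or were controls. By Entrez identifier 99.4% matched a RefSeq table and 0 symbols changed. limma 3.58.1 in R 4.3.3 (lmFit, eBayes) used 1 mean per genotype and 1 spread, and calls used a Benjamini-Hochberg adjusted p under 0.05 over all probe sets. The step was tested on simulated data. The brightest probe set stood for a gene in lists. Members and lists were chosen with earlier results of these data known; no list was tested as a set. Named genes were the members, their 6 nearest profiles, Ddit4, Abi3, up to 4 per list by unadjusted p in R6/2 x DREAM+/- against DREAM+/-, and the check genes Kcnip3 and Xist; some other genes called in a list were also named, chosen after their values were seen. Alternatives were other normalizations, a brightness filter at the 40th percentile (5.94), other variance models, array weights, only the groups compared, a replicate block, and leaving out arrays. Replicates correlated at 0.990 or more and no 2 arrays were identical. For arrays, the number per group limits precision.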

Additional observations from a re-analysis of the deposited data

Results flagged for a closer look

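One of 20 tests for a stray array, 1 for each probe set and group of 4, found a gap wider than Dixon's 95% limit. On the dimmest Ddit4l probe set, 1451751_at, R6/2 replicate 3 read 6.19 where the other R6/2 arrays read 6.42 to 6.45 (log2 level). Chance gives about 1 in 20 such gaps. The same array was the highest of its group on the other Ddit4l probe sets, at 7.90 on 1444139_at and 7.36 on 1439332_at.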

How the results depend on the processing

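The fall of all 5 probe sets in R6/2 x DREAM+/- against DREAM+/- kept its direction and its call under every alternative run, with limma adjusted p up to 0.0141 on 1427053_at and up to 0.00449 on the others; the brightness filter left no value for 1427053_at, whose mean lay under it. The averaged DREAM+/- effect was less stable. On 1427053_at of Abi3bp it passed with array weights (-0.31, adjusted p = 0.0407) and with the replicate block (-0.27, adjusted p = 0.0195), and ran from -0.32 to -0.20 on leaving out 1 array, passing without R6/2 x DREAM+/- replicate 3 (adjusted p = 0.0499) or wild-type replicate 4 (0.0454). Ddit4l passed on 1439332_at with the replicate block (0.29, adjusted p = 0.00842) and on 1451751_at without R6/2 x DREAM+/- replicate 1 (adjusted p = 0.0335), with 0.18 to 0.28 over all arrays left out in turn; the cause was not tested. The titles number the replicates without saying that equal numbers form a pair, and these values do not settle it. Same-numbered deviations correlated at -0.43 to 0.28, over 0.1 in 8 of 24 pairs. An array was closest to its own number in 18 of 48 comparisons, each with 4 arrays to choose from. The block changed no other member call and gave 2382 calls against 2420, and 4487 against 4593 for the averaged effect. DREAM+/- minus wild type on 1439332_at turned to -0.05 without wild-type replicate 4. Of 800 list counts 86 moved by over 1.5 times. In R6/2 x DREAM+/- against DREAM+/- the ranges were 0 to 1 for lower mTORC1 inhibitors, 1 to 3 for subunits and activators, 1 to 5 for the ABI and WAVE complex, 0 to 1 for fibroblast and cortical markers and 0 to 1 for higher matrix genes. In R6/2 against wild type they were 0 to 3 lower and 0 to 1 higher inhibitors, 1 to 3 higher subunits, 0 to 2 lower and 0 to 1 higher targets, 0 to 1 higher matrix genes and 0 to 1 higher medium spiny neuron markers. With the 40th percentile of all probe sets on each array as background, Abi3bp on 1427054_s_at lay at -0.56 in R6/2 x DREAM+/-, 1.04 in DREAM+/-, -1.21 in R6/2 and 1.32 in wild type relative to it (log2), so both control groups were above that line, and 1427053_at was below it in all groups. Signal over background limits the Abi3bp values.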
